A study of Mus musculus with 38 samples.

Results

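XS39-tel is a congenic mouse strain that carries a distal part of the X chromosome of MSM, an inbred strain derived from Japanese wild mice of Mus musculus molossinus, on the background of C57BL/6J (B6). Testes of XS39-tel and of B6 males at 5 days postpartum (dpp) were compared here, 3 males of each, which is 6 of the 38 arrays of the series. The series asked how MSM-derived X chromosomes alter gene expression in testes before meiosis, and each array held total RNA of the whole testis of 1 male. Beside XS39-tel and B6, the 5 dpp testes of B6-ChrXTMSM, which carry a longer distal stretch of MSM-derived X chromosome, of B6-ChrXMSM, which carry the whole MSM-derived X chromosome, and of MSM itself were used for side-by-side values, again with 3 males each. B6-ChrXTMSM and B6 males at 7 dpp, 3 each, gave values of the same alleles in other animals. MSM males at 7 dpp were set against those B6 males to choose probe sets for a scale between both strains. No XS39-tel male of 7 dpp was analysed here, and XS39-tel is 1 congenic line, so that the line and its interval cannot be told apart. A middle segment of the X chromosome, with 123 genes on the array, is B6-derived in XS39-tel and MSM-derived in B6-ChrXTMSM. The interval that is MSM-derived in XS39-tel, B6-ChrXTMSM, B6-ChrXMSM and MSM, and B6-derived in B6, runs from Diaph2 to Egfl6 and held 308 probe sets of 171 genes. The 12 genes beyond Egfl6 lie at or past the stated end of the interval and were kept apart.

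Spermatogonia at this age are few and lie among a large majority of Sertoli cells, and they begin to turn from undifferentiated into differentiating cells that will enter meiosis. The X chromosome is rich in genes that are used in spermatogonia, among them RNA export factors, transcription factors of the testis and genes of meiotic chromosomes. A male carries a single X chromosome, so in XS39-tel every transcript of the interval comes from the MSM allele and no B6 allele is present beside it. In whole-testis RNA, fewer cells of a type and less RNA per cell cannot be told apart.

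Values are log2 signals of Affymetrix probe sets, normalized by the authors. A transcript was tested where the mean signal of at least 1 of both groups was above 10 on the linear scale, which is 3.32 on the log2 scale and is called the floor below. A call, higher or lower, needed at least a 1.5-fold difference and an adjusted p (limma, Benjamini-Hochberg) under 0.05. X-linked probe sets known to hold MSM polymorphisms, 68 of the 308 in the interval, were left out of the tests between strains, while such autosomal probe sets were kept. Of 17086 transcripts tested between XS39-tel and B6, 110 were called, which is 0.644%, with 18 higher (0.105%) and 92 lower (0.538%).

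1 XS39-tel array stood apart in the 18S rRNA and Malat1 signals. The 5 prime probe set of the 18S rRNA control read 9.49, 9.35 and 5.52 in the XS39-tel testes, against 10.50, 10.39 and 10.44 in the B6 testes. Malat1, a long RNA held in the nucleus, read 11.11, 11.04 and 8.82 in XS39-tel testes by probe set 1418189_s_at, against 11.56, 11.45 and 11.70 in B6 testes. XS39-tel replicate 3 was lowest of all in both, and replicates 1 and 2 also lay below every B6 array. The log2 difference between 3 prime and 5 prime actin control signals instead set replicates 1 and 2 apart. It was 0.98, 0.90 and 1.15 in XS39-tel replicates 1, 2 and 3, against 1.20 to 1.23 in B6 testes. MSM testes were low in the rRNA control too, at 7.03, 6.89 and 6.97. Over autosomal transcripts the correlation with the other arrays of the group was 0.966 to 0.973 for XS39-tel replicate 3, 0.987 between XS39-tel replicates 1 and 2, and 0.993 to 0.996 among B6 arrays. Fat markers varied within both groups: Car3, a carbonic anhydrase of fat and muscle, read 9.39, 3.05 and 1.58 in XS39-tel testes and 10.56, 9.72 and 4.68 in B6 testes. The mean log2 signal of the 5 fat markers tested ranged over 2.31 to 6.13 in XS39-tel testes and 3.36 to 7.18 in B6 testes, and none of the 5 was called. Skeletal muscle and erythroid markers were below the floor in both groups, 0 of 6 and 0 of 4 genes being above it, while 19 of 21 Sertoli cell markers and 15 of 18 germ cell markers were above it in at least 1 of both groups. Because replicate 3 stood apart in the rRNA and Malat1 signals, results are also given without it. Those results still hold replicates 1 and 2 with their lower actin difference. Leaving out any 1 of the B6 arrays instead left at most 1 call in the interval, and leaving out XS39-tel replicate 1 left 3 higher and 2 lower, or replicate 2 left 1 higher and 3 lower.

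**Figure D1:**
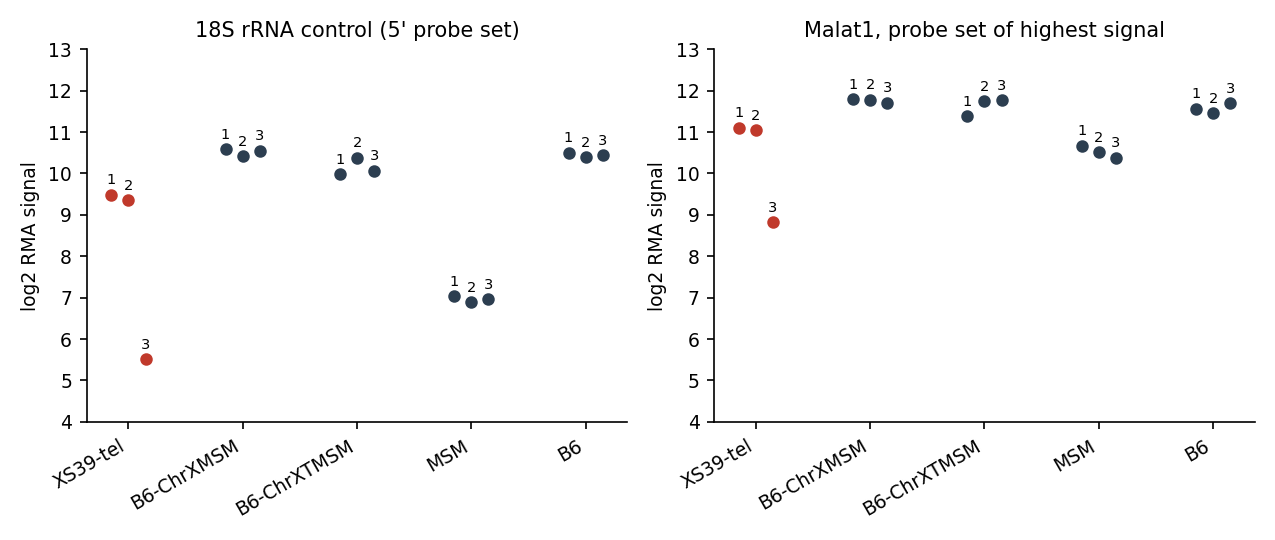
log2 RMA signals of the 18S rRNA control (5 prime probe set, left) and of Malat1 (right) in each 5 dpp testis by strain; each point is 1 array, numbered by replicate. XS39-tel replicate 3 reads 5.52 and 8.82, lower than any other array shown.

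The alleles at the interval were examined with transcripts chosen between MSM and B6 testes, without the XS39-tel arrays. Probe sets called between MSM and B6 testes at 7 dpp with at least a 2-fold difference, where 17.3% of all transcripts were called, and differing as much at 5 dpp, were placed on a scale on which B6 is 0 and MSM is 1. In the interval, all 10 such probe sets of XS39-tel testes lay nearer to MSM, with a median of 0.965 and a range of 0.56 to 1.68. In the middle segment all 6 lay nearer to B6, with a median of 0.02, and in the proximal X chromosome 17 of 18 did. B6-ChrXTMSM testes lay nearer to MSM for 10 of 10 in the interval and for 5 of 6 in the middle segment. Known polymorphic probe sets were kept on this scale, 1 in the interval, 1 in the middle segment and 4 in the proximal X chromosome, and a mismatch to the probe can itself move a signal towards that of MSM. Without them, XS39-tel testes lay nearer to MSM for 9 of 9 in the interval, with a median of 1.01, and nearer to B6 for 5 of 5 in the middle segment and 13 of 14 in the proximal X chromosome. On the autosomes 829 of 866 probe sets of XS39-tel testes lay nearer to B6, with a median of 0.02. The other 37 lay nearer to MSM, against 4 in B6-ChrXTMSM testes and 8 in B6-ChrXMSM testes. The cause of this excess in XS39-tel was not tested. Both this scale and the comparison below rest on the same B6 arrays of 5 dpp, which also entered the choice of probe sets. The interval probe sets of Nxf3, Slc25a53, Kdm5c, Kctd12b, Phex and Gpm6b on this scale are also among those called below. The scale is therefore not independent of those calls.

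**Figure D2:**
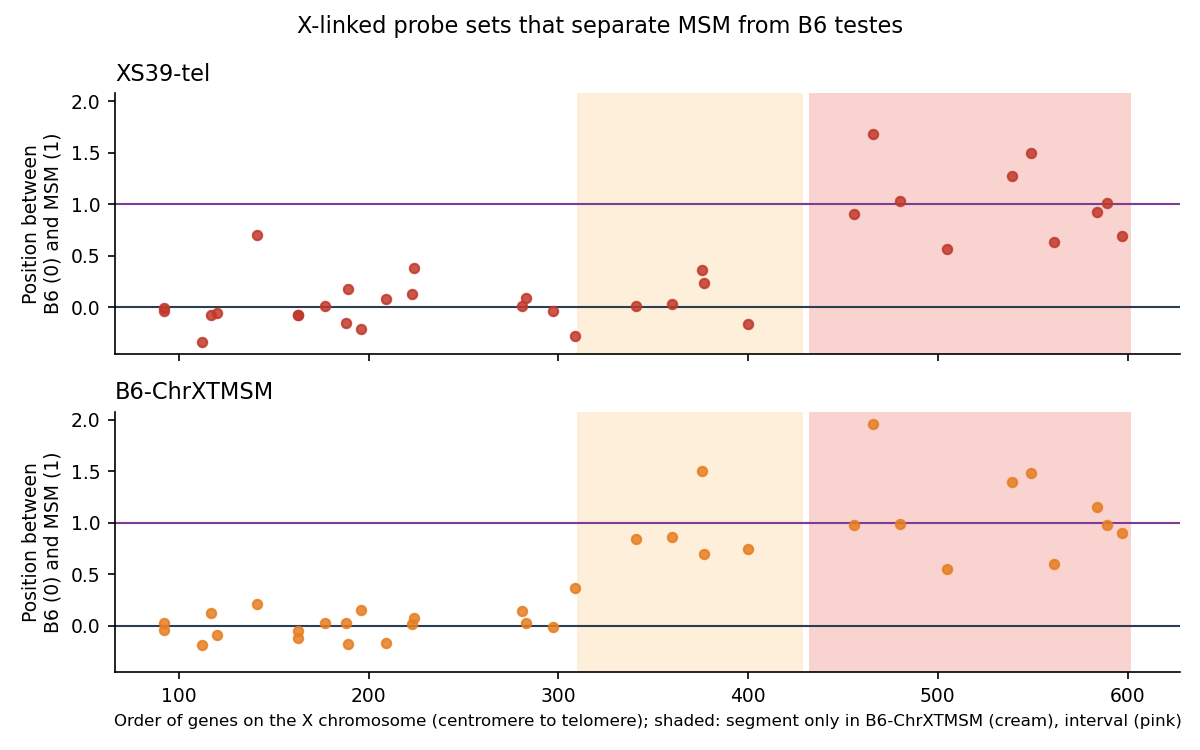
Position of each X-linked probe set that separates MSM from B6, on a scale with B6 at 0 and MSM at 1, against the order of genes from the centromere to the telomere, for XS39-tel (top) and B6-ChrXTMSM (bottom) testes at 5 dpp. XS39-tel points stay near 0 in the middle segment (cream) and reach a median of 0.965 in the interval (pink), while B6-ChrXTMSM points leave 0 already in the middle segment.

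Nhsl2, a gene of the middle segment related to an actin regulator, gave the clearest contrast between the 2 distal strains. Its probe set 1456765_at averaged 4.84 ± 0.27 in XS39-tel testes, 2.42 ± 0.15 in B6-ChrXTMSM testes, 2.01 ± 0.12 in MSM testes and 4.93 ± 0.08 in B6 testes, each with the SD over 3 males. XS39-tel testes were called higher than B6-ChrXTMSM testes (log2 difference 2.42, adjusted p = 0.0139, limma) and differed from B6 testes by -0.09 with a 95% interval of -0.41 to 0.24. Its probe set 1455040_s_at differed by -0.06 between XS39-tel and B6-ChrXTMSM testes. Klhl4, a kelch-like gene, was called too, at 3.34 in XS39-tel testes, 1.85 in B6-ChrXTMSM testes and 3.57 in B6 testes (log2 difference between XS39-tel and B6-ChrXTMSM 1.49, adjusted p = 0.0287). These were the 2 of 93 middle-segment transcripts called between XS39-tel and B6-ChrXTMSM, both higher, against a background of 0.0293% of 17063 transcripts called and 0.0234% called higher. Of the 14 middle-segment transcripts called between B6-ChrXTMSM and B6 at 5 dpp, where the background was 0.289%, 12 had a mean in XS39-tel nearer to B6 than to B6-ChrXTMSM. Among them Lpar4, a receptor for lysophosphatidic acid, averaged 5.11 in XS39-tel testes, 3.73 in B6-ChrXTMSM testes and 5.08 in B6 testes, and Atp7a, a copper transporter, averaged 6.03, 5.15 and 5.99 in the same strains.

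In the interval itself, 14 transcripts of 12 genes were called between XS39-tel and B6 testes among 136 tested, 7 higher and 7 lower. That is 10.3% of the interval against 0.644% of all transcripts. No transcript of the middle segment (0 of 93) was called by limma, although 20 of these 93 had an unadjusted p under 0.05, and on the rest of the X chromosome 1 of 238 proximal transcripts and 0 of 9 beyond the interval were called (41 and 1 with an unadjusted p under 0.05). Fold changes in the interval were spread with an SD of 0.60 on the log2 scale, against 0.31 in the middle segment, 0.25 in the proximal X chromosome and 0.25 on the autosomes. The spread was also wider in the interval in each XS39-tel array alone, with SDs of 0.67, 0.63 and 0.73 around the B6 mean, against 0.27, 0.26 and 0.41 on the autosomes. In the same arrays the SDs were 0.25, 0.34 and 0.56 in the middle segment and 0.28, 0.31 and 0.41 in the proximal X chromosome. All 3 XS39-tel arrays lay outside the range of the B6 arrays for 62 of the 136 interval transcripts (45.6%), 25 above and 37 below, against 27.8% of all transcripts, 12% above and 15.8% below. Both directions were present, and the median fold change of the interval was -0.07 on the log2 scale.

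**Figure D3:**
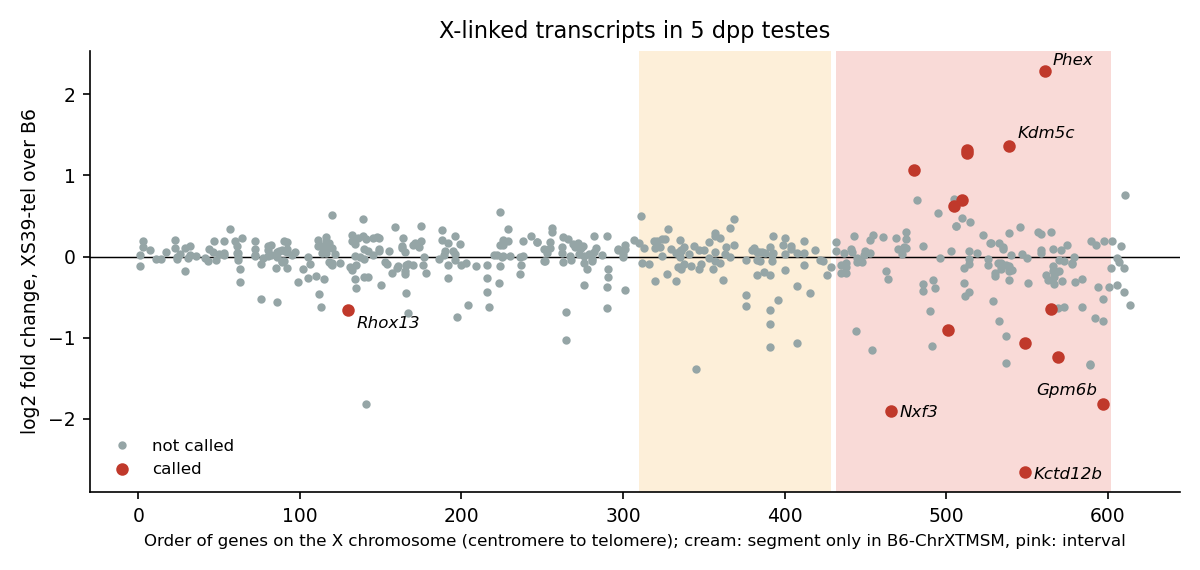
log2 fold change of XS39-tel over B6 testes at 5 dpp for each X-linked transcript tested, against the order of genes from the centromere to the telomere; cream marks the middle segment and pink the interval. The 14 called transcripts of the interval (red) lie both above and below 0, and Rhox13 is the only called transcript outside it.

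Phex showed the largest increase. It encodes a membrane endopeptidase best known for its part in phosphate balance in bone. Its log2 signals were 4.42, 5.11 and 5.04 in XS39-tel testes, against 2.74, 2.51 and 2.47 in B6 testes. The groups were far apart and B6 lay below the floor, so that the size of the change rests on a weak B6 signal. This is 4.88-fold, or 2.29 ± 0.19 on the log2 scale (estimate ± standard error, adjusted p = 0.01). B6-ChrXTMSM testes averaged 4.74 ± 0.10 (SD, n = 3) and MSM testes 6.18 ± 0.23 (SD, n = 3), and XS39-tel testes were called lower than MSM testes by 1.33 on the log2 scale (adjusted p = 0.0016).

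Promoters of 3 of the called genes are given so that the alleles' reference sequence can be seen beside the values: Phex and Gpm6b had the largest change in each direction among genes with a single RefSeq promoter, and Kdm5c is the chromatin gene among them. Of the 12 called genes, 8 had a promoter in the RefSeq table of GRCm38.p6, and 6 had a single one. Each run covers 250 bases before and 50 bases after the annotated start, 5′ to 3′ on the gene's strand, with CG dinucleotides in capitals. It is the allele of the reference strain, which B6 testes carry, and the MSM allele was not analysed here.
Phex: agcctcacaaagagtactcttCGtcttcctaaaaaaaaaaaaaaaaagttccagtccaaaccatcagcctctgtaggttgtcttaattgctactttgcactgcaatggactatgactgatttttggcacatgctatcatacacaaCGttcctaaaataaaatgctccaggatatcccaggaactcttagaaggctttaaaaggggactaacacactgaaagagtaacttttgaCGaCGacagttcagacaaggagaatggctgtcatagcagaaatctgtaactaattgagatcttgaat
Gpm6b: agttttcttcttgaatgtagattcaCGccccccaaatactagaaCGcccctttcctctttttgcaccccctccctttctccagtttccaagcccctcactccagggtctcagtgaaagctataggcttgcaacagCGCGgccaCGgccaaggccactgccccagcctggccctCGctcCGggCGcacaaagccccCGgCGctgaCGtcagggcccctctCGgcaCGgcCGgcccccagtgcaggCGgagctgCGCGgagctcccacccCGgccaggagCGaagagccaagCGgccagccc
Kdm5c: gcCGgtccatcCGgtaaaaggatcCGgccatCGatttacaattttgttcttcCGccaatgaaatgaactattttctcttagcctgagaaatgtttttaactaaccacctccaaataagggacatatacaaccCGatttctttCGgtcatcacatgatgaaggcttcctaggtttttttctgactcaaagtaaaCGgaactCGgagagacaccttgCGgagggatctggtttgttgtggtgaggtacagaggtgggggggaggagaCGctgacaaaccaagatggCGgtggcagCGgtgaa
The Phex promoter lies at chrX:157415237-157415536 (minus strand), that of Gpm6b at chrX:166238693-166238992 (plus strand) and that of Kdm5c at chrX:152232977-152233276 (plus strand). They hold 4, 20 and 13 CG dinucleotides, and 68.6%, 26.5% and 37.9% of all 32851 promoters in the table hold as many or more. The called Gpm6b probe set, 1425942_a_at, is listed from chrX:162782623 in the mm9 build, against 162676903 for its probe set 1423091_a_at. Whether the called transcript uses the printed promoter was not tested.

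Kdm5c encodes a demethylase of lysine 4 of histone H3 that escapes X inactivation in females. By probe set 1457930_at it read 5.08, 5.07 and 5.05 in XS39-tel testes, against 3.68, 3.53 and 3.92 in B6 testes. The XS39-tel arrays lay within 0.04 of each other and above every B6 array, and the difference was 2.56-fold, or 1.36 ± 0.11 on the log2 scale (standard error, adjusted p = 0.01). B6-ChrXTMSM and MSM testes averaged 5.20 and 4.79. The other 4 tested probe sets of Kdm5c had log2 fold changes between -0.29 and 0.29 and none was called, so that the increase rests on 1 probe set of the gene.

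Chrdl1 and Col4a6 were also higher. Chrdl1, which encodes a secreted antagonist of bone morphogenetic proteins, read 4.19, 4.01 and 3.94 in XS39-tel testes by 1421295_at, against 2.74, 2.71 and 2.74 in B6 testes (log2 fold change 1.32, standard error 0.08, adjusted p = 0.01). Its probe set 1434201_at gave 4.48, 3.86 and 4.47 in XS39-tel testes and 3.01, 3.21 and 2.76 in B6 testes (log2 fold change 1.28, adjusted p = 0.0449). Both probe sets separated the groups, and both were below the floor in B6. Col4a6, a type IV collagen chain of basement membranes, read 4.74, 4.81 and 4.74 in XS39-tel testes and 4.19, 4.24 and 4.01 in B6 testes, a difference of 0.62 on the log2 scale (standard error 0.08, adjusted p = 0.0366). A further Col4a6 probe set, 1421007_at, differed by 0.71 without being called (adjusted p = 0.12).

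The remaining increases were in Acsl4 and Slc25a53. Acsl4, which activates long-chain fatty acids and prefers arachidonic acid, read 6.13, 6.10 and 6.09 in XS39-tel testes and 5.44, 5.50 and 5.30 in B6 testes (log2 fold change 0.69, standard error 0.08, adjusted p = 0.0252). The mitochondrial carrier gene Slc25a53 read 4.66, 4.99 and 4.90 in XS39-tel testes and 3.54, 3.92 and 3.88 in B6 testes (log2 fold change 1.07, standard error 0.13, adjusted p = 0.0316). For both genes the XS39-tel mean lay within 0.07 of the B6-ChrXTMSM and MSM means.

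Kctd12b showed the largest decrease. It belongs to a family of cytoplasmic proteins that associate with GABA-B receptors. Probe set 1442368_at read 1.91, 1.83 and 1.06 in XS39-tel testes, against 4.31, 4.18 and 4.27 in B6 testes. XS39-tel signals were below the floor on every array, so the size of the decrease, 6.30-fold or -2.66 on the log2 scale (standard error 0.22, adjusted p = 0.01), is uncertain. Probe set 1440355_at also fell, to 3.52, 3.66 and 3.40 in XS39-tel testes, against 4.71, 4.65 and 4.41 in B6 testes, a difference of -1.06 on the log2 scale (adjusted p = 0.0209).

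Gpm6b, Sh3kbp1 and Rps6ka3 were called lower too. Gpm6b, which encodes a membrane glycoprotein of the proteolipid family, read 4.47, 4.89 and 4.08 in XS39-tel testes by 1425942_a_at, against 6.30, 6.32 and 6.26 in B6 testes (log2 fold change -1.81, standard error 0.19, adjusted p = 0.0209, or 3.51-fold lower). Its most abundant probe set, 1423091_a_at, read 6.83, 6.88 and 6.78 in XS39-tel testes and 7.32, 7.31 and 7.44 in B6 testes, a log2 fold change of -0.53 with an adjusted p of 0.0379, which is under the fold threshold. Sh3kbp1, an adaptor in receptor endocytosis, read 2.36, 2.44 and 1.71 in XS39-tel testes by 1432269_a_at and 3.51, 3.28 and 3.42 in B6 testes (log2 fold change -1.23, adjusted p = 0.0461). Rps6ka3, a kinase of the MAP kinase pathway, read 4.84, 4.88 and 5.08 in XS39-tel testes by 1427299_at and 5.65, 5.53 and 5.58 in B6 testes (log2 fold change -0.65, adjusted p = 0.0366). Its probe set of highest signal, 1455206_at, went the other way without being called, at 0.30 on the log2 scale (adjusted p = 0.147).

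Nxf3 and Tex13b, both expressed in testis, were called lower as well. Nxf3, a member of the nuclear RNA export factor family known from Sertoli cells of the testis, read 1.63, 1.14 and 1.55 in XS39-tel testes, against 3.26, 3.34 and 3.40 in B6 testes. Its B6 mean of 3.34 was just above the floor and its XS39-tel signals were well below, and they differed by -1.90 on the log2 scale (standard error 0.14, adjusted p = 0.01). Tex13b, a testis-expressed gene, read 3.48, 3.09 and 3.56 in XS39-tel testes and 4.28, 4.25 and 4.34 in B6 testes (log2 fold change -0.91, standard error 0.13, adjusted p = 0.0379). B6-ChrXTMSM testes averaged 1.12 for Nxf3 and 4.01 for Tex13b.

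**Figure D4:**
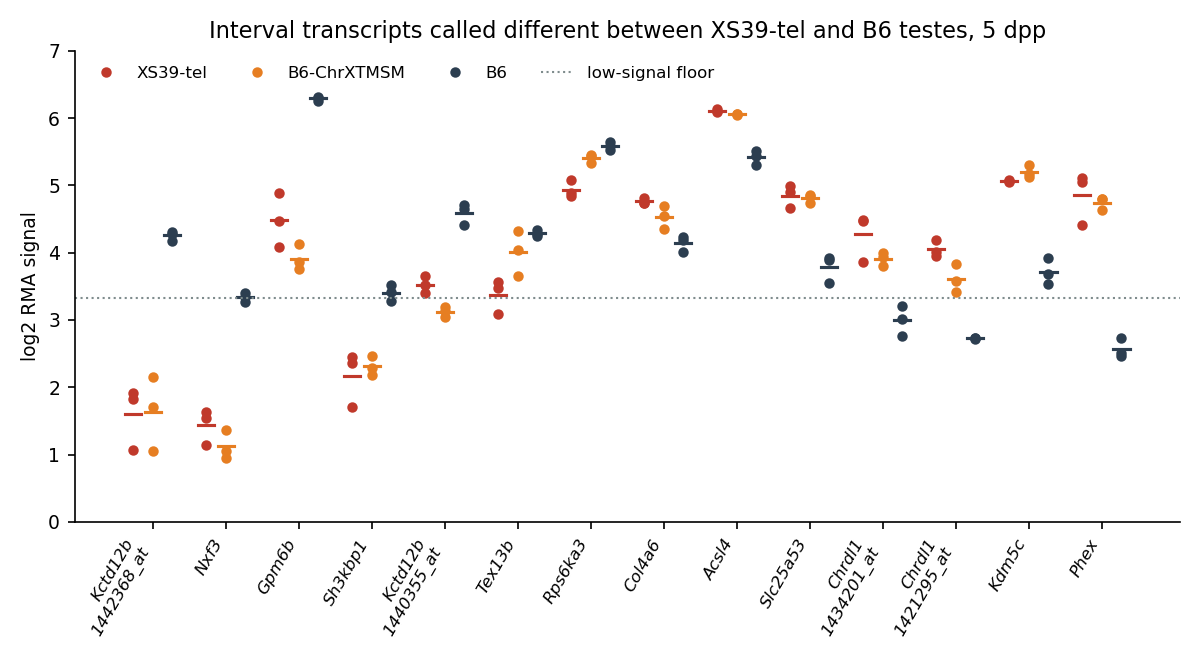
log2 RMA signal of the 14 called interval transcripts in each XS39-tel, B6-ChrXTMSM and B6 testis at 5 dpp; points are arrays, bars are means and the dotted line is the floor of 3.32. For every transcript shown the 3 XS39-tel points lie on 1 side of the 3 B6 points, and transcripts are ordered by fold change.

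Nxf2 and Taf7l, which encode an RNA export factor and a testis form of a TFIID subunit, were lower on every XS39-tel array but were not called. Nxf2 read 4.53, 4.21 and 5.09 in XS39-tel testes, against 5.66, 5.79 and 5.84 in B6 testes (log2 fold change -1.15, 95% interval -1.65 to -0.65, adjusted p = 0.0651). Taf7l read 4.27, 3.34 and 4.87 in XS39-tel testes, against 4.99, 5.05 and 5.18 in B6 testes (log2 fold change -0.91, 95% interval -1.74 to -0.09, adjusted p = 0.235). The groups did not overlap for either gene, and the spread among XS39-tel arrays was several times that among B6 arrays. Without XS39-tel replicate 3 both were called, with log2 fold changes of -1.39 (adjusted p = 0.00503) and -1.27 (adjusted p = 0.0405), while without replicate 2 they were -0.95 (adjusted p = 0.109) and -0.50 (adjusted p = 0.23). In MSM testes, which carry the same alleles, they averaged 6.47 and 5.96 and XS39-tel testes were called lower, by 1.86 on the log2 scale for Nxf2 (adjusted p = 0.000669) and by 1.80 for Taf7l (adjusted p = 0.00409). This difference from MSM was not particular to these genes. The germ cell and piRNA list described below averaged 5.88 to 6.20 per array in MSM testes, 5.22 to 5.37 in B6 testes and 4.21 to 5.02 in XS39-tel testes.

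Nrk, a kinase gene of the interval, was not called by any of its 3 probe sets. The strongest, 1450079_at, read 8.96, 9.18 and 9.47 in XS39-tel testes and 9.52, 9.59 and 9.50 in B6 testes (log2 fold change -0.33, adjusted p = 0.248). A further 16 interval transcripts, Nxf2 and Taf7l included, differed by at least 1.5-fold without passing the test on p. Among them were both tested probe sets of Vegfd, a growth factor of lymphatic vessels, with 3.47, 3.81 and 4.59 in XS39-tel testes by 1438953_at and 5.31, 5.50 and 5.05 in B6 testes (log2 fold change -1.33, adjusted p = 0.0845), and 2 probe sets of the cohesin gene Smc1a with log2 fold changes of -0.97 and -1.32. For Smc1a those values rest largely on XS39-tel replicate 3, with 5.42, 5.32 and 3.08 in XS39-tel testes by 1417831_at and 5.70, 5.46 and 5.57 in B6 testes, and the probe set of highest signal, 1417830_at, differed by -0.10.

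Without XS39-tel replicate 3, 26 of 137 interval transcripts were called, 8 higher and 18 lower, against 2.17% of all 17088 transcripts, 0.439% higher and 1.73% lower. All 14 transcripts called with the 3 arrays were called in the same direction. The added decreases were in Nxf2, Taf7l, Scml2, a Polycomb gene of the germ line, Trap1a, Asb9, Pwwp3b, Vegfd, Smc1a, Phf8 and a further Gpm6b probe set, and the added increase was in Fam199x.

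Lists of other genes of the interval held few calls. Of 9 genes of the Bex, Tceal and Arm repeat families tested, 0 were called by limma and the median log2 fold change was 0.07, near the 0.01 of all genes. Of 13 genes in a list of transcription and chromatin genes, which also held the RNA export factor Nxf3, 1 fell (Nxf3) and the median was -0.10. Of 7 kinase and signalling genes, 0 were called and the median was -0.30, with Fgd1, an activator of the GTPase Cdc42, at 4.42, 4.46 and 4.44 in XS39-tel testes and 5.07, 4.87 and 5.03 in B6 testes (log2 fold change -0.55, adjusted p = 0.0379, under the fold threshold). Of 8 metabolic genes, 1 rose (Phex) and the median was 0.16. Each gene was counted here by its probe set of highest mean signal, so that Kdm5c, Acsl4, Gpm6b, Sh3kbp1 and Rps6ka3 entered by a probe set that was not called; by this count 0.0689% of all 10161 genes were called higher and 0.276% lower. At the ends of the interval the nearest tested genes were not called: Diaph2, the first gene inside, had log2 fold changes of 0.18 and 0.06 and Egfl6, the last inside, -0.14, beside -0.13 for Nap1l3 just outside the proximal end and 0.19 for Tmsb4x just outside the distal end (adjusted p between 0.323 and 0.926).

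XS39-tel and B6-ChrXTMSM testes share the MSM alleles of the interval, and 0 of 132 interval transcripts were called between them by limma, with 24 at an unadjusted p under 0.05 (18.2%, against 17.8% of all transcripts). The SD of the log2 differences in the interval was 0.31, against 0.57 in the middle segment, where the strains differ in genotype, and 0.22 in the proximal X chromosome. For the 11 interval transcripts called against B6 and tested here, differences ranged from -0.63 for Tex13b to 0.57 for Gpm6b. The 95% interval for Phex was -0.32 to 0.55 and that for Kdm5c -0.31 to 0.05. Those for Gpm6b (0.08 to 1.05), Rps6ka3 (-0.68 to -0.26) and Tex13b (-1.09 to -0.17) left out 0 although the adjusted p values were 0.232, 0.107 and 0.184. Against B6, which both comparisons share, B6-ChrXTMSM had 18 called interval transcripts of 136, 7 higher and 11 lower, where 0.0767% and 0.212% of all transcripts were.

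At 7 dpp, other B6-ChrXTMSM and B6 males gave values for 13 of the 14 interval transcripts called in XS39-tel. All 13 had the same sign in B6-ChrXTMSM against B6, and 10 were called in the same direction. The background at 7 dpp was 5.71% of 17107 transcripts called and 22.6% of 137 in the interval. Phex was higher by 2.77 (adjusted p = 3.46e-05), Kdm5c by 1.37 (adjusted p = 0.000148), Acsl4 by 1.01 and Slc25a53 by 1.01 on the log2 scale. Nxf3 had a log2 fold change of -3.42 (adjusted p = 0.000172), Kctd12b of -2.00 and -1.15, Gpm6b of -1.91 and Tex13b of -1.33. Rps6ka3 (-0.50), Col4a6 (0.30) and Chrdl1 by 1421295_at (0.41) were not called at 7 dpp.

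Against MSM testes, 25 of 135 interval transcripts were called in XS39-tel testes (18.5%), 9 higher and 16 lower, while 25.1% of all 17782 transcripts were, 10.3% higher and 14.8% lower. In the middle segment, where the alleles differ, 24.2% of 95 transcripts were called. Beside Nxf2, Taf7l and Phex, the decreases included Scml2 (log2 fold change -1.49, adjusted p = 0.00106), the microtubule-associated Map7d2 (-1.27 and -1.23) and Tspyl2 (-0.96), and the increases included 3 of the 4 tested probe sets of the kinase gene Pak3, at 0.82, 0.98 and 1.09. For Scml2 and Map7d2 the XS39-tel means of 5.70 and 4.05 were nearer to the B6 means of 6.33 and 4.30 than to the MSM means of 7.19 and 5.32. Of the 14 transcripts called against B6, 11 were tested against MSM and 6 of them were not called.

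Outside the interval, germ cell genes had lower signals in XS39-tel testes. All 15 tested genes of the germ cell and piRNA list had a negative log2 fold change with a median of -0.74, against 0.01 over all genes, but 0 of 15 were called by limma. Their mean log2 signal per array was 4.21 to 5.02 in XS39-tel testes and 5.22 to 5.37 in B6 testes, without overlap. Without XS39-tel replicate 3 the median was -0.89 and 11 of 15 were called lower, against 1.15% of all genes (0.187% higher), and without replicate 2 the median was -0.49. Ddx4, the germ cell RNA helicase, read 6.39, 5.75 and 6.69 in XS39-tel testes and 7.04, 6.96 and 7.09 in B6 testes (log2 fold change -0.75, adjusted p = 0.152). Dazl, an RNA-binding protein of germ cells, read 7.44, 7.01 and 7.80 in XS39-tel testes and 8.24, 8.18 and 8.35 in B6 testes (log2 fold change -0.84, adjusted p = 0.0977). The piRNA protein gene Piwil2 read 4.78, 4.29 and 5.24 in XS39-tel testes and 5.71, 5.70 and 5.83 in B6 testes (-0.97, adjusted p = 0.0977). For these genes XS39-tel replicate 2 was the lowest array and replicate 3 the nearest to B6, and no array overlapped with B6.

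In the list of differentiating spermatogonia, 3 genes were called lower by their probe set of highest signal. Stra8, the retinoic acid-responsive gene needed for meiotic entry, fell to 4.14, 3.93 and 4.59 in XS39-tel testes, against 5.62, 5.58 and 5.64 in B6 testes (log2 fold change -1.39, standard error 0.16, adjusted p = 0.027). Dnmt3b, a de novo DNA methyltransferase, fell to 5.74, 5.65 and 5.95 in XS39-tel testes, against 6.33, 6.40 and 6.44 in B6 testes by 1449052_a_at (log2 fold change -0.61, adjusted p = 0.0449), while its probe set 1418351_a_at differed by -0.30 (adjusted p = 0.385) with groups that overlapped. Rhox13, an X-linked homeobox gene of germ cells that is B6-derived in XS39-tel, fell to 3.37, 3.32 and 3.33 in XS39-tel testes, against 3.94, 3.93 and 4.11 in B6 testes (log2 fold change -0.65, adjusted p = 0.0281). These were 3 of 8 genes in the list, whose median was -0.64, against 0.276% of all genes called lower. Without replicate 3 another 3, Sohlh1, Sohlh2 and Crabp1, were called lower too, when 1.15% of all genes were. Kit, the receptor of differentiating spermatogonia, read 5.34, 5.25 and 5.86 in XS39-tel testes and 5.25, 5.27 and 5.42 in B6 testes, with a log2 fold change of 0.17.

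Of 11 tested genes of meiotic prophase, 10 had a log2 fold change below 0, the median was -0.84 and 0 were called by limma. Sycp3, a component of the synaptonemal complex, read 4.08, 3.55 and 4.61 in XS39-tel testes and 5.17, 5.14 and 5.32 in B6 testes (log2 fold change -1.13, adjusted p = 0.0916). Tex11, a meiotic gene of the middle segment and thus B6-derived in XS39-tel, read 3.36, 2.03 and 3.73 in XS39-tel testes, against 4.38, 4.34 and 4.53 in B6 testes (log2 fold change -1.38, adjusted p = 0.149). It averaged 4.48 in B6-ChrXTMSM testes. Without XS39-tel replicate 3, 8 of 11 genes of the list were called lower, Tex11 among them (log2 fold change -1.73, adjusted p = 0.0423). X-linked genes of spermatogonia, 9 in number, had a median of -0.91 with 2 called lower, Tex13b and Rhox13, and 8 called lower without replicate 3. Beside the counts of both lists, 0.276% of all genes were called lower with all arrays and 1.15% without replicate 3. The X-linked list was not restricted to genes outside the interval, and Tex13b, for one, is an interval gene with the MSM allele. Its median and calls can therefore hold interval genes already reported above. In B6-ChrXTMSM testes, against the same B6 arrays, the X-linked list had a median of -0.26. Rhox13 was already counted among the differentiating spermatogonia.

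Undifferentiated spermatogonia were described by 10 tested genes with a median log2 fold change of -0.03, of which 0 were called by limma with all arrays, and 2, Sall4 and Taf4b, were called lower without replicate 3. Sall4, a zinc finger factor of spermatogonia, read 5.18, 4.61 and 5.51 in XS39-tel testes and 6.02, 6.20 and 6.15 in B6 testes (log2 fold change -1.02, adjusted p = 0.0845), while Id4, which marks stem cells, read 6.72, 6.37 and 6.51 in XS39-tel testes and 6.53, 6.73 and 6.45 in B6 testes. By probe sets other than those of highest signal, Zbtb16, a factor of undifferentiated spermatogonia, and Asz1, of the piRNA pathway, were called lower. Zbtb16 read 2.68, 2.49 and 2.53 in XS39-tel testes by 1427638_at and 3.35, 3.29 and 3.50 in B6 testes (log2 fold change -0.81, adjusted p = 0.0252), and Asz1 read 4.08, 3.83 and 4.07 in XS39-tel testes by 1422402_a_at and 4.75, 4.76 and 4.80 in B6 testes (-0.77, adjusted p = 0.027). Their probe sets of highest signal had log2 fold changes of -0.55 (Zbtb16) and -0.74 (Asz1) and were not called. In B6-ChrXTMSM testes the germ cell and piRNA list had a median of -0.14 against the same B6 arrays and averaged 4.87 to 5.20 per array. It averaged 3.40 to 4.48 in B6-ChrXMSM testes and 5.88 to 6.20 in MSM testes.

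Lists of somatic genes of the testis had medians above 0. The median log2 fold change was 0.13 over 19 Sertoli cell genes, 0.29 over 8 Leydig cell genes, 0.14 over 10 peritubular myoid genes and 0.33 over 8 macrophage genes, and 0 genes of these lists were called by limma. Endothelial genes, with a median of -0.02 over 6, were the exception. Without replicate 3 the Sertoli, Leydig, myoid and macrophage medians were 0.04, 0.25, 0.20 and 0.33. In B6-ChrXTMSM testes, against the same B6 arrays, they were 0.10, 0.17, -0.08 and 0.07. Amh, the Sertoli cell hormone that regresses the Müllerian duct, read 4.93, 5.37 and 5.65 in XS39-tel testes and 4.52, 4.49 and 4.68 in B6 testes (log2 fold change 0.75, adjusted p = 0.103), and Cyp17a1, an enzyme of androgen synthesis, read 7.77, 7.64 and 8.64 in XS39-tel testes and 7.26, 7.53 and 7.49 in B6 testes (0.59, adjusted p = 0.283). Genes of the retinoic acid pathway had a median of -0.02 over 12, proliferation genes -0.15 over 9, ribosomal proteins 0.09 over 18 and immediate early genes -0.25 over 8. Egr1, an immediate early transcription factor, read 7.27, 7.46 and 8.51 in XS39-tel testes and 8.68, 8.72 and 8.66 in B6 testes (log2 fold change -0.94, adjusted p = 0.179).

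**Figure D5:**
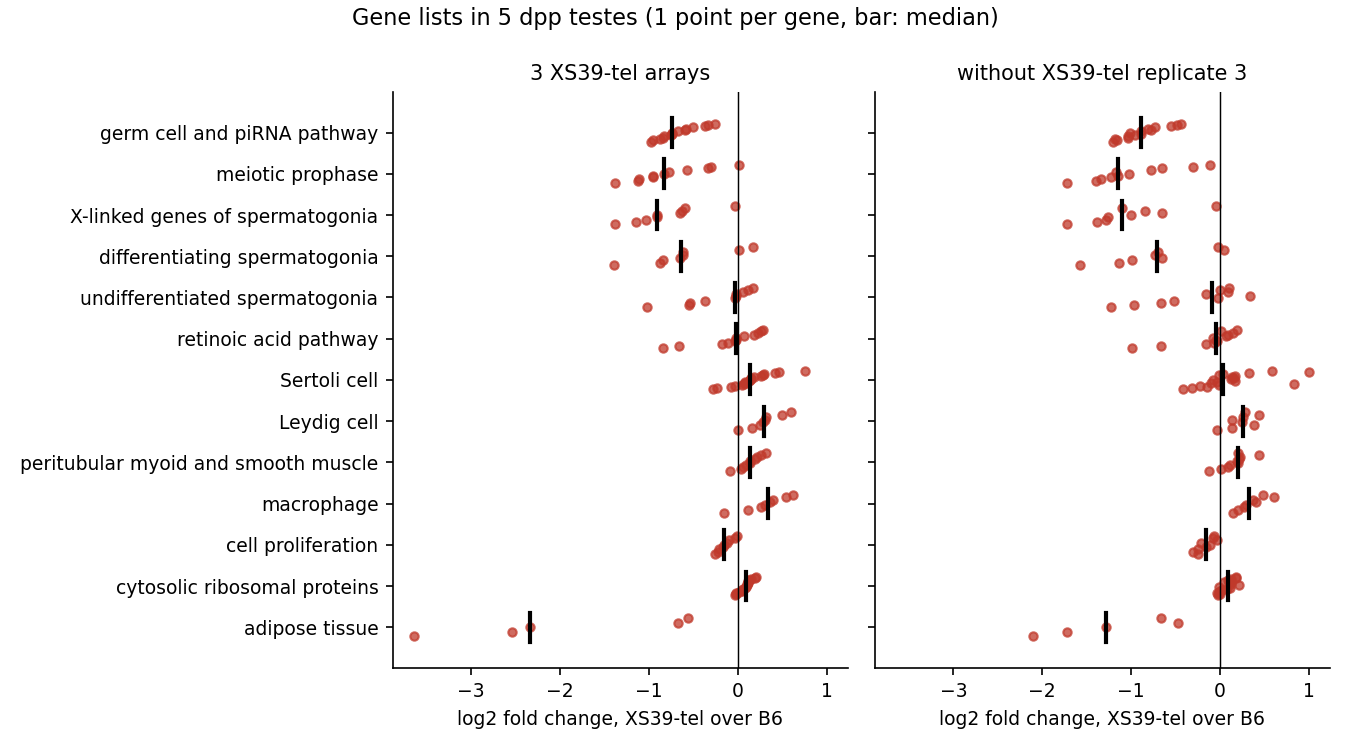
log2 fold change of XS39-tel over B6 testes for each gene of the lists named on the left, with all 3 XS39-tel arrays (left) and without replicate 3 (right); points are genes and black bars are medians. With all 3 arrays, germ cell, meiotic and X-linked spermatogonial genes have medians of -0.74, -0.84 and -0.91. The X-linked list was not restricted to genes outside the interval and includes Tex13b. Sertoli, Leydig and macrophage genes have medians of 0.13, 0.29 and 0.33 with all 3 arrays.

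On the autosomes 95 of 16610 transcripts were called (0.572%), 11 higher and 84 lower, and all but 6 of them were called again without XS39-tel replicate 3, when 333 were called. The largest decreases were in Malat1 by 1452378_at, with 5.14, 5.34 and 4.22 in XS39-tel testes and 8.18, 7.46 and 8.17 in B6 testes (log2 fold change -3.04, adjusted p = 0.0243), in the spindle motor Kif11 by 1452315_at, with 4.02, 4.29 and 3.59 in XS39-tel testes and 6.38, 6.00 and 6.23 in B6 testes (-2.24, adjusted p = 0.01), and in Jam2, a junctional adhesion molecule, by 1419288_at, with 3.21, 3.40 and 3.23 in XS39-tel testes and 5.65, 5.34 and 5.55 in B6 testes (-2.23, adjusted p = 0.00272). For each of the 3 genes only 1 probe set was called. The other tested probe sets of Malat1 had log2 fold changes from -1.92 to 0.10, those of Kif11 had log2 fold changes of 0.08 and 0.08, and those of Jam2 lay between -0.03 and 0.15. Of the 84 lower autosomal transcripts, 72 had another tested probe set of the same gene, and in 56 of these no other probe set was at least 1.5-fold lower. The same was seen for 7 of 9 higher autosomal transcripts, but for only 1 of 5 lower and 2 of 5 higher interval transcripts. MSM testes, which share the low 18S signal, averaged 6.06 for Malat1, 4.25 for Kif11 and 2.94 for Jam2 by these probe sets, and B6-ChrXTMSM testes averaged 7.57, 5.67 and 5.48 for the same genes. Within XS39-tel the Jam2 signal of replicate 3, the array lowest in 18S, lay between those of the other arrays, and the part of the low 18S signal in these calls was not tested.

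The next decreases were in Kitl, the ligand of Kit made by Sertoli cells, Ibtk and Tmx4. Kitl read 2.35, 2.78 and 2.21 in XS39-tel testes by 1415854_at and 4.56, 4.11 and 4.74 in B6 testes (log2 fold change -2.02, adjusted p = 0.0197), while its most abundant probe set, 1415855_at, read 9.52, 9.59 and 9.70 in XS39-tel testes and 9.38, 9.43 and 9.45 in B6 testes (0.18, adjusted p = 0.269) and 1426152_a_at had a log2 fold change of -1.47 (adjusted p = 0.0676). Ibtk, an inhibitor of Bruton's tyrosine kinase, and the thioredoxin-related Tmx4 had log2 fold changes of -1.88 and -1.87 by 1434282_at and 1435770_at. Their other tested probe sets were not called, with median log2 fold changes of -0.04 and -0.65. The 6 largest increases were in the translation termination factor Gspt1 (1.38), the actin regulator Wasl (1.03), the RNA-binding Rbm47 (0.87), Taf1d of the RNA polymerase I machinery (0.84), the collagen-modifying Plod2 (0.82) and the aminopeptidase Dnpep (0.80), all on the log2 scale. Plod2 read 7.15, 7.36 and 7.20 in XS39-tel testes by 1416687_at and 6.45, 6.34 and 6.45 in B6 testes (standard error 0.08, adjusted p = 0.0202). Its other tested probe set had a log2 fold change of -0.17. The other tested probe sets of Wasl, Taf1d and Dnpep were not called, with median log2 fold changes of -0.09, -0.11 and -0.08. Rbm47 had no other tested probe set. Gspt1 was called by 1446550_at alone, at 3.81, 3.75 and 3.64 in XS39-tel testes and 2.59, 1.97 and 2.51 in B6 testes, while its other 4 tested probe sets had log2 fold changes from -0.21 to 0.09.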

How the data were processed

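Total RNA of the testes of single males was labelled (3′ IVT Express) and hybridised to Affymetrix arrays of the mouse genome, 1 array per male. The authors normalized the arrays by RMA in GeneSpring GX (version not given in the sources used here) and deposited log2 signals per probe set, which were used as deposited. Because RMA equalises the distributions of arrays, a shift shared by all transcripts cannot be seen, and MSM alleles that mismatch a probe can lower its signal. Known polymorphic probe sets on the X chromosome were left out of the tests between strains, those on autosomes were kept, and unlisted polymorphisms are possible. The number of arrays limits the precision.

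Of 45101 probe sets, 34958 carried 1 gene symbol, 932 several and 9211 none in the platform annotation. Those with several or none were left out, as were those whose gene was not placed on an autosome or the X chromosome, or for which the RefSeq table and the study's tables disagreed on X linkage, and 34838 were used. Probe sets were assigned to the interval, the middle segment or the rest of the X chromosome by gene order.

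Each pair of groups was fitted with limma 3.58.1 (R 4.3.3, lmFit and eBayes). A transcript was kept where a group mean was above 10 on the linear scale, and called at a Benjamini-Hochberg adjusted p under 0.05 and at least 1.5-fold. The code was tested on simulated data. Nothing states that the males came from separate litters, so p-values measure the spread between these samples. For gene lists, each gene entered by its probe set of highest mean signal.

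The members and gene lists were chosen with earlier results of these data known. Named were all called interval transcripts, the 6 largest autosomal calls in each direction, interval genes that the study discusses, middle-segment calls, the genes at the ends of the interval, and list members of large fold change. Smc1a, Vegfd, Fgd1, Pak3, Scml2, Map7d2, Tspyl2, Zbtb16, Asz1 and some list members were named after their values were seen. Alternatives were the groups in the fit, filters on low signals, median and quantile normalization, polymorphic probe sets, a mean-variance trend, the fold threshold, a replicate block, leaving out each array and array weights.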

Additional observations from a re-analysis of the deposited data

Results flagged for a closer look

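Between XS39-tel and B6-ChrXTMSM testes, which share the MSM alleles of the interval, 5 transcripts were called different by limma, and each is listed because these strains had unequal effects against the same B6 testes. Nhsl2 and Klhl4, of the segment that is MSM-derived in B6-ChrXTMSM alone, differed by 2.42 (adjusted p = 0.0139) and 1.49 (adjusted p = 0.0287) on the log2 scale. On the autosomes, Jam2 by 1419288_at differed by -2.2 (adjusted p = 0.031), Gspt1 by 1446550_at by 1.03 (adjusted p = 0.0285) and the potassium channel gene Kcnd3 by 1.05 (adjusted p = 0.0364), with positive values higher in XS39-tel.

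X-linked probe sets with known MSM polymorphisms entered no test between strains in the report. In a further fit that kept them, 35 such interval probe sets were tested, and 0 were called higher and 4 lower in XS39-tel against B6 testes. In the fit that left them out, 5.15% of interval transcripts were called higher and 5.15% lower, against 0.105% and 0.538% of all transcripts. The 4 lower ones were Bex2 (-0.94, adjusted p = 0.00885), Acot9 (-1.35, adjusted p = 0.00697), Magea5 (-1.47, adjusted p = 0.0228) and Pir (-1.22, adjusted p = 0.014), as log2 fold changes by limma. A lower level and weaker binding of the MSM transcript to the probes cannot be told apart for them.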

How the results depend on the processing

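No log2 fold change of the 16 named interval transcripts reversed in any of 265 values from 17 alternatives. For the 14 called ones, 153 values kept the call and 78 lost it, 59 of these without 1 array, 14 with the replicate block and 5 without a filter on low signals.

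Interval calls against B6 were 7 higher and 7 lower. They became 18 lower in 1 fit over all 5 dpp groups, 4 higher and 4 lower with means above the floor in both groups, 11 lower with polymorphic probe sets kept, and 15 lower with array weights, which were chosen after seeing the data. Leaving out 1 array gave 0 to 8 higher and 0 to 18 lower, the highest without XS39-tel replicate 3. Calls outside the interval, 11 higher and 85 lower, became 32 and 240 in 1 fit over all 5 dpp groups, 5 and 50 without a filter, 24 and 134 by adjusted p alone, 46 and 249 with array weights, and 7 higher with means above the floor in both groups. Without 1 array they ranged over 0 to 67 higher and 1 to 278 lower.

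Replicate numbers are shared by both groups. The deviations of same-numbered arrays correlated at 0.29, -0.20 and 0.21, against -0.38 to 0.17 for arrays of different numbers. Deviations from a mean of 3 arrays sum to 0, so these values cannot decide whether same-numbered arrays share more than a number. With the replicate block, 0 higher and 0 lower transcripts were called by limma inside the interval and 0 and 0 outside, and 1 higher in the middle segment between XS39-tel and B6-ChrXTMSM.

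In that segment, 2 higher and 0 lower calls became 11 and 5 in 1 fit over all 5 dpp groups, 5 and 1 with quantile normalization, 7 and 2 with a trend, 11 and 4 with array weights, and 0 higher with means above the floor in both groups. Leaving out 1 array gave 0 to 11 higher and 0 to 3 lower. Against MSM, 9 higher and 16 lower interval calls became 19 and 26 by adjusted p alone, and ranged over 6 to 10 and 15 to 20 without 1 array. At 7 dpp the 10 calls in the same direction became 5 of 7 tested with means above the floor in both groups, and 9 to 10 without 1 array.

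List medians moved for macrophages (0.38) and interval transcription genes (-0.23) with the mean of all probe sets of a gene, and for the Bex, Tceal and Arm genes with array weights (0.11). Without 1 array they ranged over -0.04 to 0.05 for the retinoic acid pathway, -0.10 to 0.06 for endothelium, 0.23 to 0.40 for macrophages and 0.05 to 0.13 for the Bex, Tceal and Arm genes, which includes a change of sign for the retinoic acid and endothelium lists. The cause of these changes was not tested. Signals near the floor limit the fold changes of Phex, Chrdl1, Kctd12b, Nxf3 and Sh3kbp1.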
